A study of Homo sapiens with 9 samples.

Results

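The 10 genes described here make, recycle, regulate and break down polyamines. They were chosen by name, with earlier results of these data known. ODC1, AMD1, SRM and SMS stand for synthesis, MTAP for salvage, OAZ1, OAZ2 and AZIN1 for control of synthesis, and SAT1 and SMOX for breakdown. They are 10 of the 37351 genes in the count table, and all 10 were among the 19250 genes with enough reads to be tested. Counts were obtained by mRNA sequencing of LNCaP cells, an androgen-responsive human prostate cancer cell line, after 0, 12 or 24 h with recombinant NRG1, a ligand of the receptor HER3. Each time was represented by 3 libraries. All 9 cultures had first been kept for 6 to 12 h without serum and calcium. The 12 h and 24 h cultures then received NRG1 at 15 ng/mL, and the 0 h cultures were collected without it. No library was kept for 12 or 24 h without NRG1, so an effect of NRG1 and an effect of further time in that medium cannot be told apart. The line is 1 cell line grown in culture, and the results are given for it alone. The question addressed by these libraries is which transcripts change in prostate cancer cells exposed to this ligand.

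The polyamines putrescine, spermidine and spermine are small, positively charged molecules that bind RNA, DNA and acidic proteins and are needed for growth. The prostate is known for making them in unusual amounts, and spermine is a main component of prostatic fluid. Ornithine decarboxylase makes putrescine, and spermidine synthase and spermine synthase then each add an aminopropyl group that comes from decarboxylated S-adenosylmethionine. Each addition leaves methylthioadenosine, which is returned to the methionine pool. When polyamines are plentiful, antizyme is translated through a ribosomal frameshift and takes ornithine decarboxylase to the proteasome, while antizyme inhibitor binds antizyme in its place. Breakdown begins with acetylation by spermidine/spermine acetyltransferase or with direct oxidation of spermine. Much of this control acts on translation and protein turnover, which counts of mRNA do not measure.

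Library totals were 58267359 to 60985825 counts (0 h), 48760003 to 54083444 (12 h) and 47016302 to 54605125 (24 h). The mitochondrially encoded share of counts was 5.31% to 6.09% (0 h), 5.44% to 5.52% (12 h) and 5.02% to 5.36% (24 h). All 8 markers of LNCaP cells were present at 31.8 to 1624 CPM (a gene's share of its library's counts, scaled to a common total after the trimmed mean of M values method), among them KLK3 at 989 to 1333 CPM and FOLH1 at 1387 to 1624 CPM. The 11 markers of stromal, endothelial and blood cells summed to 38.9 to 41.3 CPM (0 h), 31.99 to 34.4 CPM (12 h) and 31.8 to 34.1 CPM (24 h). COL1A1 (21.4 to 26.3 CPM) and VWF (6.87 to 13.6 CPM) made up most of that sum. CDH5 was at 0 in all 9 libraries, COL1A2 in 8 of them, LYZ in 6, DCN and PECAM1 in 5, and PTPRC in 4. The part of these marker counts in the results was not tested. In bulk RNA, fewer cells of a kind and less RNA per cell cannot be told apart.

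The 4 transcripts for polyamine synthesis were modestly higher after 12 h with NRG1, 3 of them (ODC1, AMD1 and SRM) also after 24 h, and the transcript of the acetylating enzyme SAT1 was lower at 24 h than at either earlier time. At 12 h against 0 h, 6 of the 10 genes rose and none fell in edgeR's quasi-likelihood test at an adjusted p of at most 0.05, where 10.6% of all tested genes rose, 8.16% fell and 18.7% passed in either direction. The genes that rose were ODC1, AMD1, SRM, SMS, AZIN1 and MTAP. At 24 h against 0 h, 4 genes rose (ODC1, AMD1, SRM and AZIN1) and 1 fell (SAT1), where 11.6% of all tested genes rose and 9.48% fell, 21.1% together. Between 12 h and 24 h, SMS and SAT1 fell and none rose, where 3.05% of all tested genes fell, 3.03% rose and 6.08% passed in either direction. All 10 genes averaged at least 10 CPM. Among the tested genes that reached this level, 29.9% passed in either direction at 12 h, 32.5% at 24 h and 10.2% between 12 h and 24 h. The changes were small. None of the 10 genes passed with a change of at least 1.5-fold in any of the 3 comparisons, a second threshold that 2.37% of tested genes passed at 12 h, 3.31% at 24 h and 0.452% between the later times. That count of 0 was also obtained with DESeq2 in each comparison. A joint edgeR test of any difference among the 3 times was passed by 7 of the 10 genes and by 25.1% of all tested genes. Because the 10 genes were chosen with earlier results known, their counts beside these shares are a description.

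**Figure D1:**
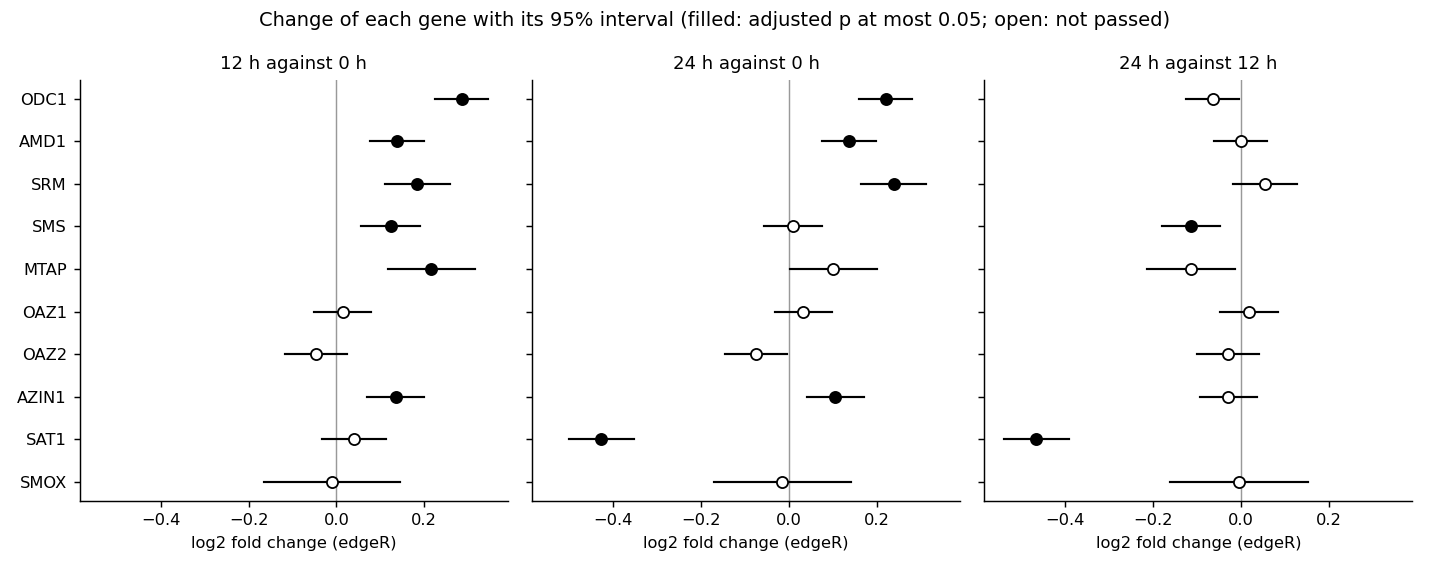
Log2 fold changes of the 10 polyamine genes fitted by edgeR, with 95% intervals, for each later time against 0 h and for 24 h against 12 h, and filled points where the adjusted p was at most 0.05. The rise of ODC1 at 12 h (0.29) and the fall of SAT1 at 24 h (-0.43) lie farthest from 0 among the changes against 0 h.

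Promoter sequences were taken from RefSeq (GRCh38.p14), which matched 8 of the 10 genes by symbol, namely all but AZIN1 and SMOX. Those of ODC1 and SRM, which rose at both times, and of SAT1, which fell at 24 h, are shown because their genes moved farthest among those matched. Each covers the 250 bases before the annotated start, read 5′ to 3′ on the strand of the gene. Capitals mark CCGGAA, the core bound by ETS factors, and CACGTG, the E-box bound by MYC and its partners, as found on either strand. The ODC1 sequence is chr2:10448328-10448577 on the minus strand, the SRM sequence is chr1:11060019-11060268 on the minus strand, and the SAT1 sequence is chrX:23782923-23783172 on the plus strand.
ODC1: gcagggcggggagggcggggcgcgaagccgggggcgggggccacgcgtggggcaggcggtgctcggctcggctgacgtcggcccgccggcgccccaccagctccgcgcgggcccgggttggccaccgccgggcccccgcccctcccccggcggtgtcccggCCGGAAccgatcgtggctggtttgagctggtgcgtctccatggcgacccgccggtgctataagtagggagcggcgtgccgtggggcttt
SRM: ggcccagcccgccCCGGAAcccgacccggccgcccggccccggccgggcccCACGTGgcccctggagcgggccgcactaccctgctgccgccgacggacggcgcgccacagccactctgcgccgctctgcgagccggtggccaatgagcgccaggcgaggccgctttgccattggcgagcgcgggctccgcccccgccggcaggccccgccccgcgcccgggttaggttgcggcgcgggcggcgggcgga
SAT1: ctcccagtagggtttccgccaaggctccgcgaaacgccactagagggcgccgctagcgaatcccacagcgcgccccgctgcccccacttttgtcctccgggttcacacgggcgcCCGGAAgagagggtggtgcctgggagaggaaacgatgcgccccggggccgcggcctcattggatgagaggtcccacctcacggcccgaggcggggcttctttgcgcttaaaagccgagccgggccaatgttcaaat
The ETS core lay 89 bases before the start of ODC1, 237 before that of SRM and 136 before that of SAT1. It was present in 5 of the 8 matched promoters (ODC1, SRM, OAZ2, SAT1 and MTAP) and in 14.5% of the 35116 RefSeq promoters of the same length. The E-box was found for SRM, 199 bases before its start, for no other matched gene and in 6.34% of all promoters. The GC box GGGCGG was found in 7 of the 8 (all but SAT1) and in 42.6% of all promoters. The letters TATAAA of the TATA box were found in MTAP, 215 bases before its start, and in 10.7% of all promoters. Only exact matches were counted, so near matches such as tataag in the ODC1 sequence above were left out. The cyclic AMP element TGACGTCA (1.65% of all promoters) and the androgen receptor half-site AGAACA (12.4%) were found in none of the 8. Motifs were searched on both strands, and none of them contains another. The promoters shown were rich in G and C, at 78.8% for ODC1, 82.0% for SRM and 66.4% for SAT1, against a median of 58.0% over all promoters. A match describes these letters, and binding was not measured.

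ODC1, which encodes ornithine decarboxylase, the enzyme that commits ornithine to putrescine, lies on chromosome 2 from 10439968 to 10448327 on the minus strand of GRCh38. Its level was 752, 754 and 742 CPM in the 0 h libraries, 901, 933 and 905 CPM at 12 h, and 886, 879 and 855 CPM at 24 h. All 6 treated libraries lay above all 3 at 0 h. The means were 749 ± 6.26, 913 ± 17.4 and 873 ± 16.4 CPM (SD, n = 3 each). In edgeR the rise at 12 h was 1.22-fold (95% interval 1.17 to 1.27, adjusted p = 3.99e-09), the largest fold among the 10 genes in that comparison. At 24 h the log2 fold change was 0.22 ± 0.0300 (SE, edgeR adjusted p = 5.44e-07). The 24 h libraries were all below the 12 h libraries, with a log2 difference of -0.06 that did not pass the edgeR test (adjusted p = 0.229).

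AMD1 encodes S-adenosylmethionine decarboxylase, which supplies the aminopropyl groups. It lies on chromosome 6 from 110874770 to 110898879 on the plus strand. Its level was 660.4, 635 and 636 CPM at 0 h, 709, 702 and 714 CPM at 12 h, and 718, 704 and 703 CPM at 24 h. The treated libraries again lay above every 0 h library, and the 12 h and 24 h libraries overlapped. The log2 fold change was 0.14 ± 0.0299 (SE) at each time, with edgeR adjusted p-values of 0.000805 at 12 h and 0.000705 at 24 h.

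SRM, spermidine synthase, is at 11054584 to 11060020 of chromosome 1 on the minus strand. It was measured at 169.6, 181 and 179 CPM at 0 h, 196, 199 and 207 CPM at 12 h, and 210.3, 218 and 196 CPM at 24 h. The groups at 12 h and 24 h did not overlap that at 0 h. The rise was 1.14-fold at 12 h (95% interval 1.08 to 1.195, edgeR adjusted p = 0.000255) and 1.18-fold at 24 h (1.12 to 1.24, edgeR adjusted p = 4.16e-06). Replicates at 24 h were spread more widely (SD 10.9 CPM) than at 0 h (6.00 CPM), and the difference between 12 h and 24 h did not pass (log2 0.05, edgeR adjusted p = 0.446).

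SMS, spermine synthase, differed from the 3 genes above in having a raised level at 12 h that was not seen at 24 h. It spans 21940709 to 21994837 of the X chromosome on the plus strand. Its level was 125, 127 and 127 CPM at 0 h, 139, 139 and 135 CPM at 12 h, and 126, 125 and 129.85 CPM at 24 h. The 12 h group stood above both others, and the 0 h and 24 h groups overlapped. The log2 fold change was 0.12 ± 0.0328 (SE, edgeR adjusted p = 0.00586) at 12 h and 0.01 ± 0.0329 (SE, edgeR adjusted p = 0.884) at 24 h. The difference of 24 h from 12 h was itself tested, with a log2 value of -0.11 (95% interval -0.18 to -0.05, edgeR adjusted p = 0.0300). That call was near the threshold. It no longer passed without 12 h replicate 1 or 2 or 24 h replicate 1 or 2, or with no scaling factor (edgeR adjusted p = 0.0545). With 1 library left out, the log2 value ranged from -0.129 to -0.105. Over all edgeR and DESeq2 alternatives the adjusted p ran from 0.0151 to 0.134. A pair of near-identical copies of SMS carried 0.385% of its counts.

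MTAP encodes methylthioadenosine phosphorylase, the first enzyme of the salvage route, and spans 21802636 to 21937651 of chromosome 9 on the plus strand. Its level was 42.0, 37.2 and 36.9 CPM at 0 h, 46.2, 45.7 and 42.9 CPM at 12 h, and 39.6, 42.2 and 42.7 CPM at 24 h. One of the 0 h libraries lay within the range at 24 h, while no 0 h library reached the range at 12 h. The gene rose 1.16-fold at 12 h (95% interval 1.08 to 1.24, edgeR adjusted p = 0.00126). At 24 h the log2 fold change was 0.10 ± 0.0490 (SE) and did not pass in edgeR (adjusted p = 0.149). Without 0 h replicate 1, the highest of its group, the 24 h value was 0.17 and passed (edgeR adjusted p = 0.0107), and over all alternatives the adjusted p ran from 0.0107 to 0.427. The difference between 12 h and 24 h did not pass (log2 -0.11, edgeR adjusted p = 0.187).

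**Figure D2:**
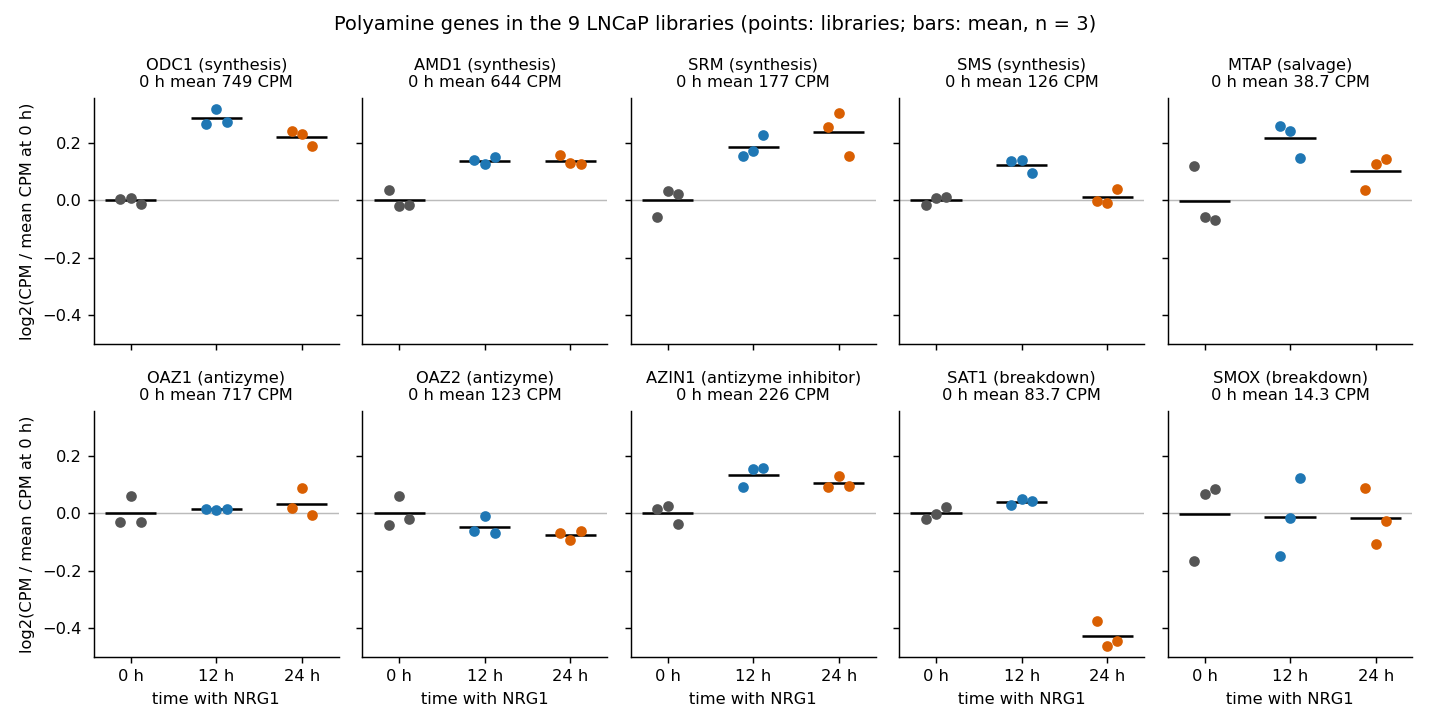
Log2 of the CPM of each of the 10 polyamine genes relative to its mean at 0 h, in the 9 libraries at 0, 12 and 24 h, with 1 panel a gene, points for single libraries and bars for the mean of 3. ODC1 stood at 742 to 754 CPM at 0 h against 855 to 933 CPM later, and SAT1 at 60.9 to 64.6 CPM at 24 h against 82.6 to 86.7 CPM earlier.

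Of the genes that control synthesis, the antizyme inhibitor rose and neither antizyme passed a test. AZIN1, the antizyme inhibitor, lies on chromosome 8 from 102826111 to 102893864 on the minus strand. It was measured at 228, 229.9 and 220.3 CPM at 0 h, 241, 252 and 252 CPM at 12 h, and 241, 248 and 241 CPM at 24 h. No treated library fell within the 0 h range. The log2 fold change was 0.13 ± 0.0319 (SE, edgeR adjusted p = 0.00205) at 12 h and 0.11 ± 0.0319 (SE, edgeR adjusted p = 0.0144) at 24 h. The 24 h call was lost without 0 h replicate 3 (adjusted p = 0.0747) and without 24 h replicate 2 (adjusted p = 0.0773), and the edgeR and DESeq2 alternatives ranged from 0.00791 to 0.0773. A gene that overlaps AZIN1, MAILR, carried 1.2% as many counts.

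OAZ1, the main antizyme, is at 2269509 to 2273490 of chromosome 19 on the plus strand. Its level was 703, 747 and 702 CPM at 0 h, 725, 724 and 725 CPM at 12 h, and 726, 761 and 715 CPM at 24 h. All 3 groups overlapped. The log2 fold changes of 0.01 at 12 h (95% interval -0.05 to 0.08) and 0.03 at 24 h (-0.03 to 0.10) did not pass in edgeR (adjusted p = 0.822 and 0.538).

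OAZ2, a second and less abundant antizyme on chromosome 15 (64687573 to 64703281, minus strand), was measured at 119, 128 and 121 CPM at 0 h, 118, 122 and 117 CPM at 12 h, and 117, 115 and 117 CPM at 24 h. The 24 h libraries lay just below the 0 h libraries without overlap, as for 33.5% of all tested genes. The log2 fold change at 24 h was -0.08 (95% interval -0.15 to -0.0044), which did not pass after adjustment in edgeR (adjusted p = 0.131). At 12 h it was -0.05 (edgeR adjusted p = 0.412).

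SAT1, spermidine/spermine N1-acetyltransferase, which marks polyamines for export or oxidation, showed the largest change of the 10 genes. It lies on the X chromosome from 23783173 to 23786210 on the plus strand. Its level was 82.6, 83.5 and 85.1 CPM at 0 h and 85.4, 86.7 and 86.1 CPM at 12 h. At 24 h it was 64.6, 60.9 and 61.5 CPM. Every 24 h library lay below all 6 others by about the same step, and the 12 h libraries lay narrowly above those at 0 h. The log2 fold change at 12 h was 0.04 (95% interval -0.03 to 0.11) and did not pass in edgeR (adjusted p = 0.516). At 24 h SAT1 was 1.34-fold lower than at 0 h, a log2 fold change of -0.43 ± 0.0365 (SE, edgeR adjusted p = 1.78e-11). Against 12 h it was 1.38-fold lower, a log2 difference of -0.47 ± 0.0366 (SE, edgeR adjusted p = 3.04e-11). Both calls held in every alternative run.

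SMOX, spermine oxidase, which returns spermine to spermidine, was the least abundant of the 10 genes in CPM. It lies on chromosome 20 from 4120980 to 4187747 on the plus strand. Its level was 12.7, 14.9 and 15.1 CPM at 0 h, 12.8, 14.1 and 15.5 CPM at 12 h, and 15.1, 13.2 and 13.98 CPM at 24 h, so the groups overlapped throughout. The log2 fold changes were -0.01 at both times, with 95% intervals of -0.17 to 0.14 at 12 h and -0.17 to 0.14 at 24 h, and did not pass in edgeR (adjusted p = 0.952 and 0.926). On the linear scale the 12 h interval ran from -10.9% to 10.6%, so a change of either sign within it remains possible. The interval is not a limit of detection of the adjusted test.

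By groups that did not overlap in CPM, 7 of the 10 genes differed at 12 h against 0 h, 6 at 24 h against 0 h and 4 between 12 h and 24 h. The same was true of 32.8%, 33.5% and 24.4% of all tested genes. The median log2 fold change of the 10 genes was 0.13 at 12 h against 0 h, 0.07 at 24 h against 0 h and -0.03 between 12 h and 24 h. Over all tested genes the medians were -0.0084, -0.0068 and 0.0011. The comparisons at 12 h and at 24 h share the 0 h libraries and are not independent of each other. Replicates were close, with coefficients of variation from 0.123% (OAZ1 at 12 h) to 9.51% (SMOX at 12 h).

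Levels of different genes can be set side by side only per length. At 0 h and per kilobase of the canonical transcript, OAZ1 led with 625 ± 22.6 CPM per kilobase (SD, n = 3), followed by ODC1 with 303 ± 2.53, AMD1 with 188 ± 4.15 and SRM with 140.1 ± 4.76. Below these came SAT1 with 79.8 ± 1.19 CPM per kilobase, SMS with 74.2 ± 0.745, OAZ2 with 63.4 ± 2.41 and AZIN1 with 53.9 ± 1.22. SMOX (6.59 ± 0.618 CPM per kilobase) and MTAP (6.41 ± 0.477) came last and did not differ beyond their spread. All other neighbours in that order had ranges that did not overlap. The order depends on the length used. Per kilobase of all annotated exons it was ODC1 (227 CPM per kilobase), OAZ1 (209), SRM (93.2), AMD1 (63.2), SMS (59.3), AZIN1 (36.9), SAT1 (33.7), OAZ2 (15.98), SMOX (4.84) and MTAP (2.66), so most places changed and SMOX stood apart from MTAP.

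Ratios within a library do not depend on scaling between libraries, and are given as descriptions, since an exact permutation test of 3 against 3 libraries cannot go below a p of 0.10. OAZ1 counts per ODC1 count, a measure of antizyme transcript relative to the transcript of its target, ran from 0.934 to 0.992 (0 h), 0.776 to 0.805 (12 h) and 0.820 to 0.866 (24 h). The groups did not overlap, and the ratio was lowest at 12 h. SAT1 per ODC1, a transcript for breakdown relative to a transcript for synthesis, ran from 0.110 to 0.115, 0.0929 to 0.0952 and 0.0693 to 0.0729 at the same times. The libraries of each time lay below those of the time before it. AMD1 per ODC1 ran from 0.843 to 0.878 (0 h), 0.752 to 0.789 (12 h) and 0.801 to 0.823 (24 h). SMS per SRM ran from 0.702 to 0.736, 0.653 to 0.707 and 0.575 to 0.661, with overlap between neighbouring times. SMOX per SAT1 ran from 0.154 to 0.179, 0.150 to 0.180 and 0.218 to 0.234, higher at 24 h with a level of SMOX that did not pass a test. AZIN1 per OAZ1 ran from 0.308 to 0.325 (0 h), 0.332 to 0.348 (12 h) and 0.325 to 0.338 (24 h).

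**Figure D3:**
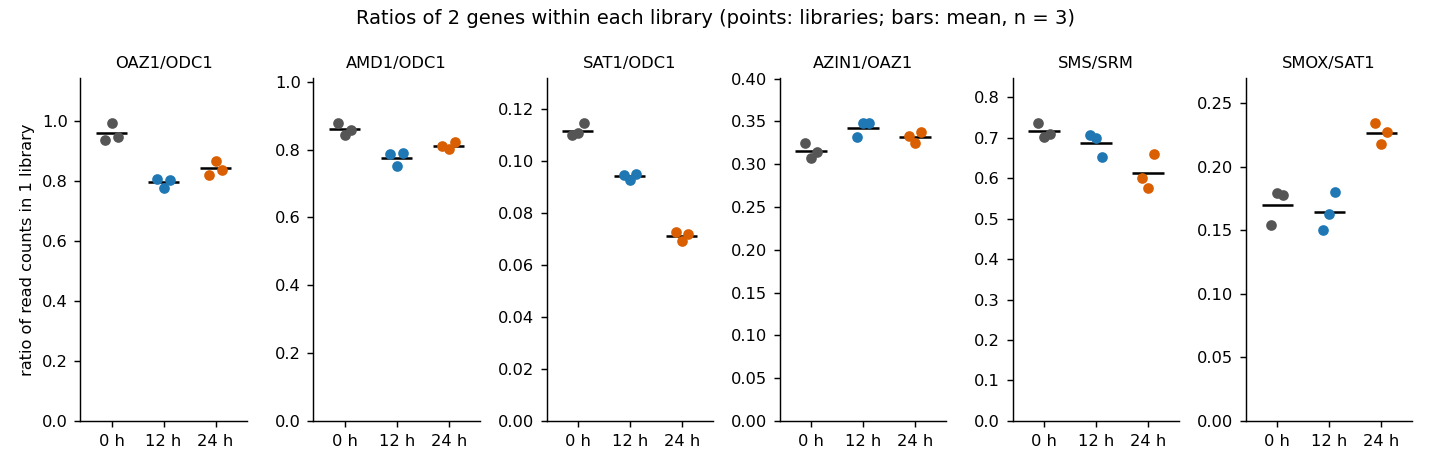
Ratios of counts of pairs of polyamine genes within each of the 9 libraries at 0, 12 and 24 h, with points for single libraries and lines for group means. SAT1 per ODC1 lay at 0.110 to 0.115 at 0 h and at 0.0693 to 0.0729 at 24 h, and OAZ1 per ODC1 was lowest at 12 h, at 0.776 to 0.805.

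Genes around the pathway were counted in 5 lists with 49 genes, of which 42 were tested. At 12 h against 0 h, 12 rose and 4 fell, beside 10.6% and 8.16% of all tested genes. At 24 h against 0 h, 16 rose and 6 fell, beside 11.6% and 9.48%, and between 12 h and 24 h, 4 rose and 6 fell, beside 3.03% and 3.05%. In either direction, 29.9% of tested genes that averaged at least 10 CPM passed at 12 h and 32.5% at 24 h. The median log2 fold change of the 42 was 0.06, 0.10 and 0.01 in these comparisons, beside the medians of all tested genes given above.

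Among 12 genes of polyamine transport, 10 were tested, with 2 higher and 2 lower at 12 h and 4 higher and 3 lower at 24 h against 0 h (median log2 fold change 0.03 and 0.13), where 18.7% of all tested genes passed in either direction at 12 h and 21.1% at 24 h. SLC22A3 and SLC22A2 are organic cation transporters, which carry polyamines among other substrates. SLC22A3 stood at 270.3 ± 5.19 CPM at 0 h, 176 ± 2.09 CPM at 12 h and 147 ± 6.86 CPM at 24 h (SD, n = 3 each). In edgeR the log2 change was -0.62 ± 0.0338 at 12 h and -0.88 ± 0.0340 at 24 h (SE, adjusted p = 1.41e-16 and 3.68e-21). SLC22A2 fell by 0.34 and 0.67 on the log2 scale (edgeR adjusted p = 3.28e-05 and 4.10e-11). Genes on the opposite strand overlap both of these, RP11-72O9.5 with 34.1% of the counts of SLC22A3 and RP1-276N6.2 with 298% of those of SLC22A2. Their own log2 changes were -0.56 and -0.93 for the first and -0.10 and -0.43 for the second, and with the strand setting of the counting not stated their reads cannot be told apart from those of the transporters. SLC18B1, a vesicular polyamine transporter, rose by 0.23 and then 0.35 on the log2 scale (edgeR adjusted p = 0.00285 and 7.95e-06).

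Of 13 genes that supply ornithine and arginine, 9 were tested, with 3 higher and 1 lower at 12 h and 4 higher and 1 lower at 24 h against 0 h (median 0.07 and 0.11), beside 10.6% higher and 8.16% lower of all tested genes at 12 h and 11.6% and 9.48% at 24 h. ARG2, the mitochondrial arginase that makes ornithine from arginine, was the lower one. It stood at 48.2 ± 2.53 CPM at 0 h, 26.8 ± 0.549 CPM at 12 h and 21.1 ± 0.615 CPM at 24 h. The log2 fold changes were -0.85 ± 0.0480 and -1.19 ± 0.0492 (SE, edgeR adjusted p = 4.83e-16 and 2.41e-20), larger than that of any of the 10 polyamine genes. VTI1B overlaps ARG2 on the opposite strand with 241% as many counts, and its own log2 fold changes were -0.20 and -0.26 (edgeR adjusted p = 0.000194 and 2.30e-06). The transcripts of the pair share a stretch of 770 bases at 100% identity, and without a stated strand setting their reads there cannot be told apart. OAT, ornithine aminotransferase, which joins ornithine to the glutamate and proline pools, rose by a log2 fold change of 0.55 at 12 h (edgeR adjusted p = 2.50e-05) and stood at 0.11 at 24 h (adjusted p = 0.482). Its 24 h level was lower than its 12 h level by the direct test (log2 -0.44, edgeR adjusted p = 0.00204). SLC7A2, a carrier of cationic amino acids, rose by 0.30 and 0.44 (edgeR adjusted p = 6.89e-07 and 1.34e-10). SLC25A15, the mitochondrial ornithine carrier, rose by 0.22 and 0.19 (adjusted p = 0.00104 and 0.00427), and its 24 h call was lost without 24 h replicate 2 (log2 0.14, adjusted p = 0.0760).

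All 15 genes listed for the methionine cycle and the salvage of methylthioadenosine were tested. At each time against 0 h, 6 rose and 1 fell (median 0.10 at both). In either direction, 18.7% of all tested genes passed at 12 h and 21.1% at 24 h. PNP, purine nucleoside phosphorylase, was counted in this list but is not an enzyme of the cycle or of this salvage. It rose by log2 fold changes of 0.35 and 0.32 (edgeR adjusted p = 1.47e-07 and 6.92e-07). MTRR, which reactivates methionine synthase, rose by 0.24 and 0.27 (adjusted p = 0.0002 and 4.24e-05), and FASTKD3, which overlaps it with 29.5% as many counts, had log2 changes of 0.13 and 0.07 that did not pass. MRI1, which follows MTAP in the salvage route, had log2 changes of 0.22 and 0.38 (edgeR adjusted p = 0.0404 and 0.000163). Its 12 h call was lost with DESeq2 (adjusted p = 0.0553), with no scaling factor (0.0602) and without 0 h replicate 2 (0.162), 0 h replicate 3 (0.0559), 12 h replicate 1 (0.0779) or 12 h replicate 2 (0.2204). ADI1, a later enzyme of the same route, fell by 0.13 and 0.45 on the log2 scale (edgeR adjusted p = 0.00397 and 2.26e-13). ADI1 was the 1 gene of this list that fell at each time, and MTAP was higher at 12 h.

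The 4 genes of EIF5A and its hypusine modification, which uses spermidine, were all tested (median 0.11 at 12 h, 0.08 at 24 h). EIF5A, the translation factor that carries hypusine, rose on the log2 scale by 0.12 and 0.16 (edgeR adjusted p = 0.0103 and 0.000729). The 12 h call was lost without 0 h replicate 3 (adjusted p = 0.0579) or 12 h replicate 2 (adjusted p = 0.107). EIF5A2, its paralog, had 0.19 at 12 h, which did not pass (adjusted p = 0.121), and rose by 0.48 at 24 h (adjusted p = 5.07e-05). DHPS and DOHH, which make the modification, did not pass at either time against 0 h. DHPS was counted at a mean of only 2.73 CPM at 0 h, 2.92 CPM at 12 h and 2.18 CPM at 24 h. WDR83 overlaps DHPS on the opposite strand with 195% as many counts, and CTD-2192J16.27 on the same strand with 30.5%. Its result is therefore weakly measured. Of 5 paralogs and further catabolic genes, 4 were tested (median -0.02 at 12 h and -0.11 at 24 h). None of them passed at 12 h, where 18.7% of all tested genes passed in either direction. SAT2, a paralog of SAT1, stood at a log2 change of -0.08 after 12 h (edgeR adjusted p = 0.145) and fell at 24 h (-0.21, adjusted p = 3.99e-05), which was the direction of SAT1 at that time.

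**Figure D4:**
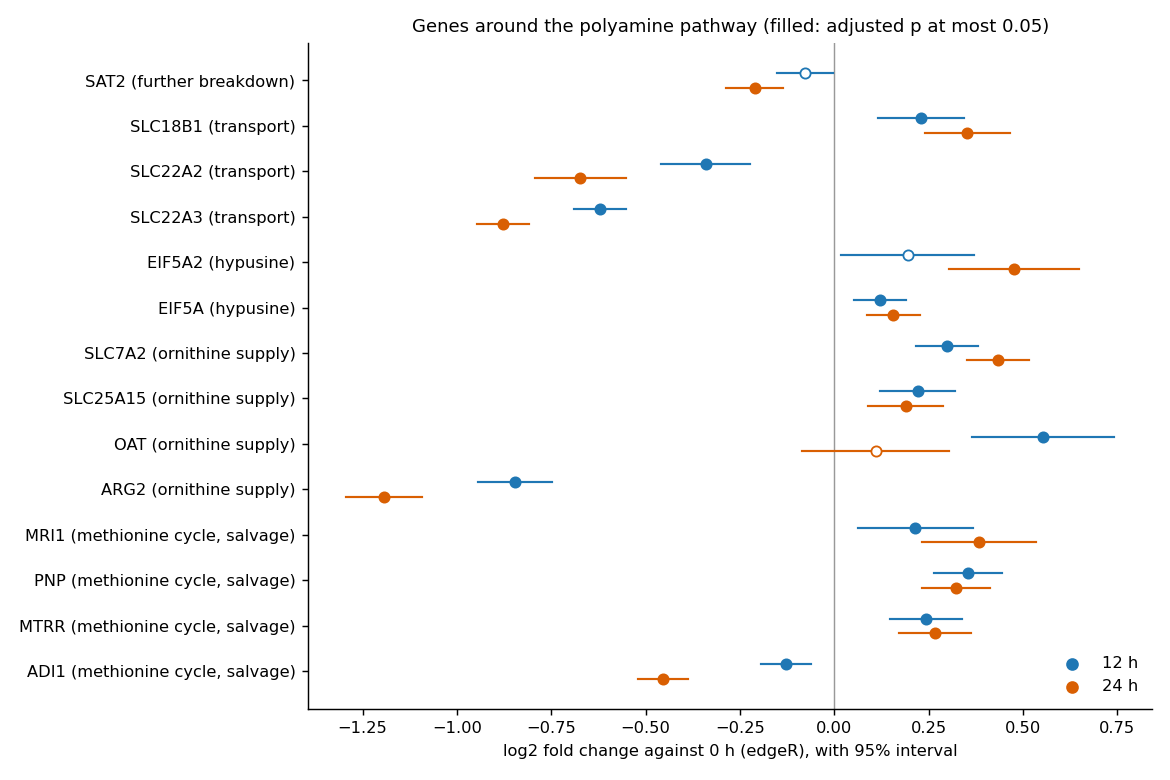
Log2 fold changes fitted by edgeR at 12 h and 24 h against 0 h for genes around the pathway, 1 row a gene with its list in brackets. Shown are those named in the text that passed at either time. Bars are 95% intervals, and points are filled where the adjusted p was at most 0.05. ARG2 (-0.85 and -1.19) and SLC22A3 (-0.62 and -0.88) were lower at both times, and OAT was higher at 12 h (0.55).

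The genes whose pattern over the 9 libraries was most like that of ODC1, by Pearson's r of log2 CPM across 11399 genes, were UQCRC2 (0.993), TNFRSF10A (0.992), GATA2 (0.990), NFKB2 (0.989) and MYC (0.987). MYC averaged 295 CPM at 0 h, 427 CPM at 12 h and 407 CPM at 24 h. Those most like SAT1 were MGST2 (0.994), OXCT1 (0.991), DLGAP5 (0.983), POT1 (0.982) and CENPW (0.981). The 9 points share their times and library depths, and these values are a description of the 9 libraries.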

How the data were processed

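Messenger RNA of LNCaP cells was sequenced in 9 libraries, 3 for each time. Per the study's methods, the authors trimmed reads with Cutadapt, mapped them to GRCh38 with STAR and obtained gene counts by featureCounts on a GENCODE annotation. The strand setting was not given in the sources used here. The methods state that 1 time-0 replicate of LNCaP was left out without naming the treatment. The study's captions give a varying replicate number for its ASPN experiment and a fixed one of 3 for NRG1. Each 0 h library of the table entered the fits. The authors deposited whole-number counts per gene, neither normalized nor pooled, beside 14 empty columns that were not used.

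Genes were kept with filterByExpr (19250 tested), libraries were scaled by the trimmed mean of M values (TMM), and all 9 were fitted with edgeR 4.0.16 (robust quasi-likelihood) in R 4.3.3, with no covariate. P-values were adjusted by Benjamini and Hochberg over all tested genes, and a change was called at an adjusted p of at most 0.05. The study's own fold threshold of 1.5 was given as a second one. Log2 fold changes, standard errors and 95% intervals come from that fit, and CPM values are on TMM-scaled library sizes. Common dispersion gave a biological coefficient of variation of 4.075%. The fit was tested on simulated data. Intervals and depth (47016302 to 60985825 counts per library) cover counting error and the spread between these samples. Titles call the libraries biological replicates, but the cells were plated in triplicate wells, so p-values measure only the spread between these samples, which may be technical. No 2 libraries of a time agreed within sampling noise (chi-square per degree of freedom 3.05 to 8.69).

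The members and lists were chosen with earlier results of these data known. In each list around the pathway, up to 4 genes with the largest log2 change against 0 h among those that passed were named, and 1 gene of the transport list so chosen is not reported here. For ODC1 and SAT1 the 5 genes of highest correlation were named (genes of mean log2 CPM 2 or more). Overlaps, strands and lengths came from GENCODE v44, and near-identical copies were searched by alignment of transcripts. Alternatives were DESeq2 1.42.0, other scaling and filters, the 6 compared libraries alone, mitochondrial genes left out, a replicate block and each library left out.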

Additional observations from a re-analysis of the deposited data

Results flagged for a closer look

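SAT1 and SMS had effects at 12 h and 24 h that differed from each other by the direct edgeR test of 24 h against 12 h. For SAT1 the log2 difference was -0.47 (adjusted p = 3.04e-11), with 85.4 to 86.7 CPM in the 3 libraries at 12 h and 60.9 to 64.6 CPM in the 3 at 24 h. For SMS it was -0.11 (edgeR adjusted p = 0.0300), with 135 to 139 CPM at 12 h and 125 to 129.85 CPM at 24 h, lower in 3 of 3 libraries. Over all alternatives the adjusted p of the SMS difference ran from 0.0151 to 0.134, so that call is the less firm. With 3 libraries a time, no test for single outlying libraries was made.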

How the results depend on the processing

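Of the 13 changes called for the 10 genes, 214 of 221 values under the alternatives kept the call, 7 no longer passed and none reversed. The count of genes called at 12 h against 0 h was 6 in all 17 alternatives, and that at 24 h against 0 h ranged from 4 to 6 when 1 library was left out. Between 12 h and 24 h the count was 2, and 1 with no scaling factor (SMS, log2 -0.10, edgeR adjusted p = 0.0545). With 1 library left out it ranged from 1 to 2, that of all tested genes from 685 to 1449 (1171 in all 9 libraries) and that of the lists around the pathway from 6 to 11. Sign changes were found only for values near 0 that had not passed. AMD1 between 12 h and 24 h was 0.0116 with no scaling factor, 3.52e-05 with at least 10 counts in every library, and -0.0102 to 0.0045 with 1 library left out. SMOX between 12 h and 24 h was 0.0081 with no scaling factor and -0.0691 to 0.0648 with 1 library left out. With 1 library left out, SMOX ranged from -0.0838 to 0.0595 at 12 h and from -0.0885 to 0.0338 at 24 h, OAZ1 between 12 h and 24 h from -0.00997 to 0.0375, and SMS at 24 h from -0.0051 to 0.0213. Of 34 changes called for the named genes around the pathway, 551 of 578 values kept the call, 27 no longer passed and none reversed. The causes of these shifts were not tested.

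No pairing of the samples by replicate number was visible. Deviations of same-numbered libraries had correlations of -0.122 to 0.147, and those of differently numbered ones -0.206 to 0.223. With the replicate block, 6, 5 and 2 of the 10 genes were called (12 h and 24 h each against 0 h, then 24 h against 12 h), and 3672, 4081 and 1262 of all genes, against 3605, 4065 and 1171 without it. DESeq2 called 6, 5 and 2 of the 10 and 3391, 3787 and 1110 of all genes.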
